A study of Mus musculus with 2 samples.

Results

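The desmosome genes of the epidermis were taken as Dsg1a, Dsg1b, Dsg2, Dsg3, Dsc1, Dsc2, Dsc3, Dsp, Jup and Pkp1. Every non-control probe that carried one of these 10 names on both arrays was used, which gave 16 of the 55676 probes tested and 10 of the 34820 names on them. A desmosome is a spot-like junction that ties the keratin filaments of neighbouring epidermal cells together. Its desmogleins (Dsg) and desmocollins (Dsc) are cadherins that cross the membrane and bind each other in the gap between cells. Inside the cell, plakoglobin (Jup) and the plakophilins (Pkp) hold the cadherin tails, and desmoplakin (Dsp) links this plaque to keratin. Loss of some of these proteins, or antibodies against some of the desmogleins, can lead to blistering and fragile skin.

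Epidermis with 12 h of SOX11 induction was compared with that of control littermates in FVB/N mice at postnatal day 4.5. The control pup of each pair carried K14-rtTA alone, and the SOX11 pup carried K14-rtTA and TRE-Sox11-FLAG. K14-rtTA drives an activator that needs doxycycline from the keratin 14 promoter, which is used by basal keratinocytes, and both genotypes received doxycycline (Dox). The 2 littermate pairs were each measured on 1 two-colour array, with control RNA labelled with Cy3 and SOX11 RNA with Cy5 on both arrays. A positive log2 ratio (Cy5 over Cy3) means that the SOX11 pup was brighter, and an effect of the dye on a probe cannot be told apart from an effect of the genotype. No probe of Sox11 was well above background in any channel, so that the induced gene could not check the labels.

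The epidermal identity of the RNA was examined with marker lists. All 6 basal and all 5 measured suprabasal keratinocyte genes were above background. The lists also showed other cells, with 7 of 7 melanocyte genes, 5 of 5 immune genes, 4 of 6 fibroblast genes, 2 of 4 endothelial genes and 1 of 4 muscle genes above background. The pairs differed in several lists, most of all in hair shaft keratins, whose 11 probes had a median of 2.28 (pair 1) and -0.38 (pair 2) as log2 ratios. The log2 of their summed channel intensity was 15.30 in the control and 17.50 in the SOX11 pup of pair 1. In pair 2 it was 18.36 and 18.04, so that the control pup of pair 1 stood lowest. Such a sum is weighted toward the brightest probes. Immune markers, summed in the same way, were higher in pair 1 (13.76 in the control and 13.37 in the SOX11 pup) than in pair 2 (12.20 and 11.73). The 4 fibroblast probes above background had median log2 ratios of -0.17 (pair 1) and 0.84 (pair 2), and 1 of them, Dcn, passed as lower (mean -0.79, limma adjusted p = 0.026). The part of these cells in the desmosome values was not tested. The RNA was that of whole epidermis, in which fewer cells of a type and less RNA per cell cannot be told apart.

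No desmosome gene passed the test between SOX11-induced and control epidermis. Of the 16 probes, 14 passed the background filter (1 channel or more well above background on each array), and these covered all 10 genes. None of the 16 was called changed, that is, none had an adjusted p under 0.05 with a log2 ratio past 1.5 in either direction, whereas 0.453% of all probes were. At an adjusted p under 0.05 alone, no member rose and no member fell in limma's test, against 4.39% of all probes (2.99% higher and 1.41% lower) and 9.99% of those above background. At an unadjusted p under 0.05 there were 3 of the 14 probes (Dsg2, Dsg3 and Dsp), against 31.2% of all probes above background. The smallest adjusted p of a member was 0.166. The number of member probes at an adjusted p under 0.05 depended on the scaling, as it did for all probes. It was 1 (Dsp) at an offset of 50, 3 (Dsp, Jup and Pkp1) under median centring and all 16 under spike-in scaling, all of them higher. Over all probes, 5.12%, 21.8% and 86.4% passed as higher under these settings. These shares count dim probes too and were not computed over probes above background. With spike-in scaling 2 member probes were called changed, against 12.6% of all probes.

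Most values were slightly below 0 in the loess fit. Of the 14 probes, 10 had lower values in the SOX11 pup of both pairs, 2 had higher values in both, and 2 differed in sign. Over all probes above background, 33.1% were lower in both pairs and 41.0% were higher in both. The median log2 ratio of the 14 probes was -0.20, with -0.27 in pair 1 and -0.12 in pair 2, beside 0.04 over all 21782 probes above background. With the brightest probe of each gene the median was also -0.20. This direction rests on the scaling, since 1 of the 14 probes was below 0 under median centring and none was when the arrays were scaled to the spike-in RNAs. Those scalings moved the median of all probes above background to 0.51 and 1.31. Relative to that median, the median of the desmosome probes lay lower, with differences of -0.24 in the loess fit and -0.16 under both other scalings. Median centring and spike-in scaling differ only by a constant per array, so that their equal difference was fixed in advance.

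**Figure D1:**
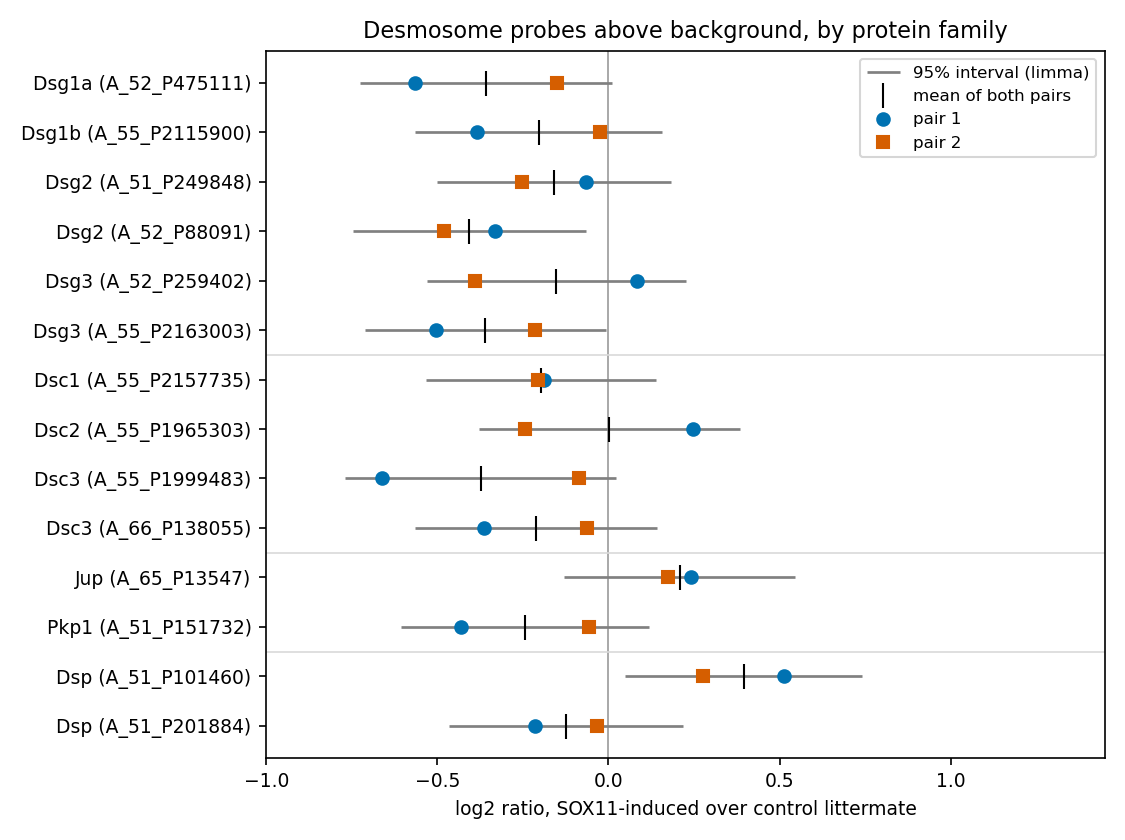
Log2 ratio of SOX11-induced over control epidermis for the 14 desmosome probes above background, with the value of each littermate pair, their mean and its 95% interval from limma; lines separate desmogleins, desmocollins, armadillo proteins and desmoplakin. Most values lie between -0.66 and 0.25, and only 1 Dsp probe and Jup were above 0 in both pairs.

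The plaque proteins were measured by 4 probes, each well above background in all 4 pups. Desmoplakin had 2 of them. The first, A_51_P101460, lies at chr13:38290121-38290180 on the plus strand of the mouse build mm9 and was spotted 10 times on each array. The second, A_51_P201884, lies 4.64 kb upstream and is listed over 1100 bases of the genome (chr13:38285480-38286579, plus strand), more than the 60 bases of the probe. Plakoglobin was measured at chr11:100238038-100238097 (minus strand) and plakophilin 1 at chr1:137768027-137768086 (minus strand). The probe sequences of the array files are shown because the Dsp probes gave different values. Of the 60 bases of each probe, all are given for Dsp A_51_P201884 and Jup and the first 30 for the others. The place of the 4 probes in their transcripts was not analysed here.
Dsp A_51_P101460, first 30 bases: aaattacactgactactggtggcttagtac
Dsp A_51_P201884: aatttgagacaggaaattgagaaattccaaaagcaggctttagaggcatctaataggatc
Jup A_65_P13547: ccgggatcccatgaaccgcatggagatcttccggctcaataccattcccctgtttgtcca
Pkp1 A_51_P151732, first 30 bases: catcttgtatgagaaccttgtgctgaacgg

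The downstream Dsp probe, A_51_P101460, had the highest ratio of the 14 probes. Its log2 channel level, after loess and scaling between the arrays, was 14.19 in the control and 14.71 in the SOX11 pup of pair 1, and 14.43 and 14.71 in pair 2. Both SOX11 pups were above both controls. The log2 ratio was 0.51 (pair 1) and 0.28 (pair 2), with mean 0.40 ± 0.17 (SD, n = 2; 95% interval 0.05 to 0.74), and it did not pass after adjustment (adjusted p = 0.184, limma). The spread of the 10 spots within an array was smaller than the difference between the pairs, with an SD of 0.074 on array 1 and 0.050 on array 2. With an offset of 50 in the background correction its adjusted p was 0.049 at a mean of 0.39, and under median centring it was 0.000526 at a mean of 1.17.

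The upstream Dsp probe did not share this shift. Its level was 8.77 in the control and 8.55 in the SOX11 pup of pair 1, and 8.68 and 8.65 in pair 2, so that both SOX11 pups were just below their controls. The mean log2 ratio was -0.12 ± 0.13 (SD over 2 pairs, limma adjusted p = 0.687). The downstream probe exceeded the upstream probe by 0.73 in pair 1 and by 0.31 in pair 2. With 2 pairs an exact sign-flip test cannot give a p below 0.5, and the difference between the probes was not tested.

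Jup encodes plakoglobin, which takes part in both desmosomes and adherens junctions. Its level was 8.18 in the control and 8.42 in the SOX11 pup of pair 1, and 8.39 and 8.57 in pair 2. Both SOX11 pups were above both controls, by a small margin. As for Dsp A_51_P101460, the lowest pup was the control of pair 1, which also had the lowest hair shaft keratins. The control of pair 2 had the highest hair shaft keratins and was below both SOX11 pups for Jup and this Dsp probe. The part of the hair in these values was not tested. The log2 ratio was 0.24 and 0.18, a mean of 0.21 ± 0.05 (SD over 2 pairs, 95% interval -0.13 to 0.54, limma adjusted p = 0.466). Under median centring the mean was 0.74 with an adjusted p of 0.006.

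Pkp1 encodes plakophilin 1, which gathers desmoplakin into the plaque and is the plakophilin best known from human skin fragility. Its level was 15.55 in the control and 15.12 in the SOX11 pup of pair 1, and 15.31 and 15.26 in pair 2. Both SOX11 pups were below both controls, and most of the difference came from pair 1. The log2 ratio was -0.43 and -0.06, a mean of -0.24 ± 0.27 (SD over 2 pairs, 95% interval -0.61 to 0.12, limma adjusted p = 0.424). Under median centring the direction turned, with a mean of 0.56 and an adjusted p of 0.030.

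**Figure D2:**
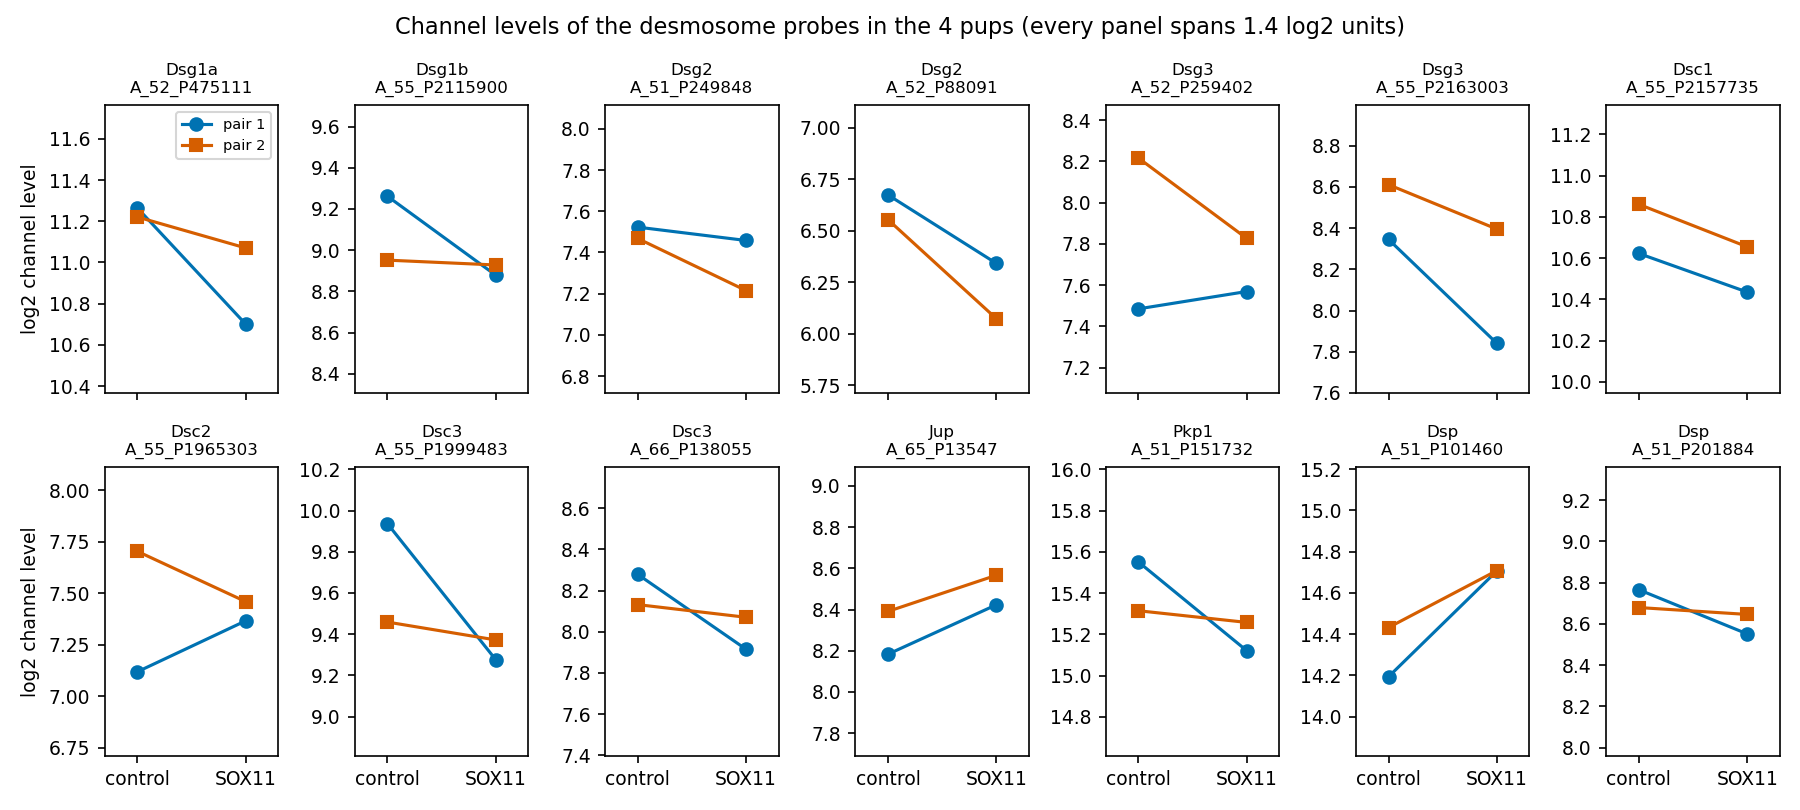
Log2 channel level of each of the 14 desmosome probes in the control and the SOX11 pup of both littermate pairs, after loess and scaling between arrays; lines join littermates, and each panel has its own level axis of equal length. The control pup of pair 1 was the lowest of the 4 pups for Dsc2, 1 Dsg3 probe, Dsp A_51_P101460 and Jup. The lines run in opposite directions for Dsc2 and that Dsg3 probe, while both lines rise for Dsp A_51_P101460 and Jup.

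The 6 desmoglein probes above background all had means below 0 in the loess fit, at -0.41 or above on the log2 scale, none passed the test, and all but 1 Dsg2 probe turned positive under median centring. The mouse has 3 Dsg1 genes, and desmoglein 1 is most abundant in the upper layers of the epidermis. Dsg1a (A_52_P475111, chr18:20501268-20501327) had a level of 11.27 in the control of pair 1, with a log2 ratio of -0.56 in its SOX11 littermate, and levels of 11.22 and 11.07 in pair 2. Both SOX11 pups were below both controls. The mean log2 ratio was -0.36 ± 0.29 (SD over 2 pairs, 95% interval -0.73 to 0.01, limma adjusted p = 0.250). Dsg1b (A_55_P2115900, chr18:20568117-20568176) went from 9.26 to 8.88 in pair 1 and from 8.95 to 8.93 in pair 2. The second pair thus showed almost no difference, and the mean was -0.20 ± 0.25 (SD over 2 pairs, limma adjusted p = 0.509). The Dsg1 genes are close copies, and whether a probe also bound RNA of another copy was not tested.

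Desmoglein 3, the main desmoglein of the basal layer, was read by 2 probes above background that disagreed in pair 1. A_55_P2163003 (chr18:20699734-20699793) went from 8.34 to 7.84 in pair 1 and from 8.61 to 8.39 in pair 2, a mean log2 ratio of -0.36 ± 0.20 (SD over 2 pairs, limma adjusted p = 0.228). A_52_P259402 (chr18:20698528-20698587), 1.21 kb away, went from 7.48 to 7.57 in pair 1 and from 8.22 to 7.83 in pair 2. Its mean was -0.15 ± 0.34 (SD over 2 pairs, limma adjusted p = 0.648), and its values in the SOX11 pups lay between those of the control pups. For this probe the pups stood in the same order as for the summed hair shaft keratins. The part of the hair in this value was not tested. The remaining Dsg3 probe, A_55_P2087008, was not well above background in any channel, and no change is given for it.

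Dsg2, the desmoglein of simple epithelia and of the follicle, had the lowest ratio of the 14 probes. A_52_P88091 (chr18:20737628-20737687) went from 6.67 to 6.34 in pair 1 and from 6.55 to 6.07 in pair 2. Both SOX11 pups were below both controls, and the mean log2 ratio was -0.41 ± 0.10 (SD over 2 pairs, 95% interval -0.75 to -0.07, limma adjusted p = 0.166). It was also the 1 desmosome probe that stayed below 0 under median centring, at -0.12. Its channel levels were the lowest of the 14 probes, and median centring treats brightness differently from loess. The other probe above background, A_51_P249848 (chr18:20761177-20761236), lies 23.5 kb downstream. It went from 7.52 to 7.46 in pair 1 and from 7.47 to 7.22 in pair 2, a mean of -0.16 ± 0.13 (SD over 2 pairs, limma adjusted p = 0.595). The third Dsg2 probe, A_52_P96159, was not well above background in any channel.

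The desmocollins did not pass the test either. Dsc1, the desmocollin of the upper layers (A_55_P2157735, chr18:20243332-20243391), went from 10.62 to 10.44 in pair 1 and from 10.86 to 10.65 in pair 2. The pairs were nearly equal, with a mean log2 ratio of -0.20 ± 0.01 (SD over 2 pairs, 95% interval -0.53 to 0.14, limma adjusted p = 0.490), although the control pups differed from each other by 0.24. Dsc2, the desmocollin found in most epithelia (A_55_P1965303, chr18:20189299-20189358), went from 7.12 to 7.37 in pair 1 and from 7.70 to 7.46 in pair 2. Both SOX11 values lay between those of the controls, and the mean was 0.00 ± 0.35 (SD over 2 pairs, limma adjusted p = 0.997). The control pup of pair 1 that was lowest for Dsc2 was also the one with the lowest hair shaft keratins, and the part of the hair in this value was not tested.

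Dsc3, the desmocollin of the basal layer, was read by neighbouring probes that ran the same way. A_55_P1999483 (chr18:20124142-20124201) went from 9.94 to 9.28 in pair 1 and from 9.46 to 9.37 in pair 2. Both SOX11 pups were below both controls, and the drop was far larger in pair 1. The mean log2 ratio was -0.37 ± 0.41 (SD over 2 pairs, limma adjusted p = 0.263). A_66_P138055 (chr18:20122029-20124146), which is listed over 2118 bases of the genome, went from 8.28 to 7.91 and from 8.13 to 8.07. Its mean was -0.21 ± 0.21 (SD over 2 pairs, limma adjusted p = 0.478). Mean ratios of the basal members (Dsg3, Dsc3) and the upper-layer members (Dsg1a, Dsg1b, Dsc1) thus lay between -0.37 and -0.15 in the loess fit. All of them were above 0 under median centring and spike-in scaling. Dsg1c, the Dsg1 copy outside the members, had a lower mean of -0.55 and was at -0.004 under median centring.

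Control pups also differed from each other. Between the 2 control pups, levels of the 14 probes differed by 0.04 to 0.73 on the log2 scale with a median of 0.24, a difference that also holds any effect of the array. For 6 of the 14 probes it exceeded the size of the mean log2 ratio. The SD over the pairs ranged from 0.01 to 0.41 with a median of 0.21, and it was larger than the size of the mean for 7 probes. The 95% intervals of the 14 probes together reached from -0.77 to 0.74, which is a range from 0.586-fold to 1.67-fold, and 11 of them included 0. These bounds rest on the loess scaling and on limma's prior.

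All desmogleins and desmocollins lie in 1 cluster, spanned by probes over 639 kb at chr18:20122029-20761236 (mm9). The desmocollin probes are on the minus strand and the desmoglein probes on the plus strand. Of the 17 probes there, 12 were above background, of which 9 were lower in both pairs, none was higher in both and 3 differed in sign, with a median log2 ratio of -0.21. Besides the members, the cluster holds Dsg1c, Dsg4 and the probes TC1630295 and AK052896, of which the last 2 were not above background. The lowest ratio was that of Dsg1c, and the highest that of Dsg4 in pair 1. As for the members, these signs changed with the scaling.

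**Figure D3:**
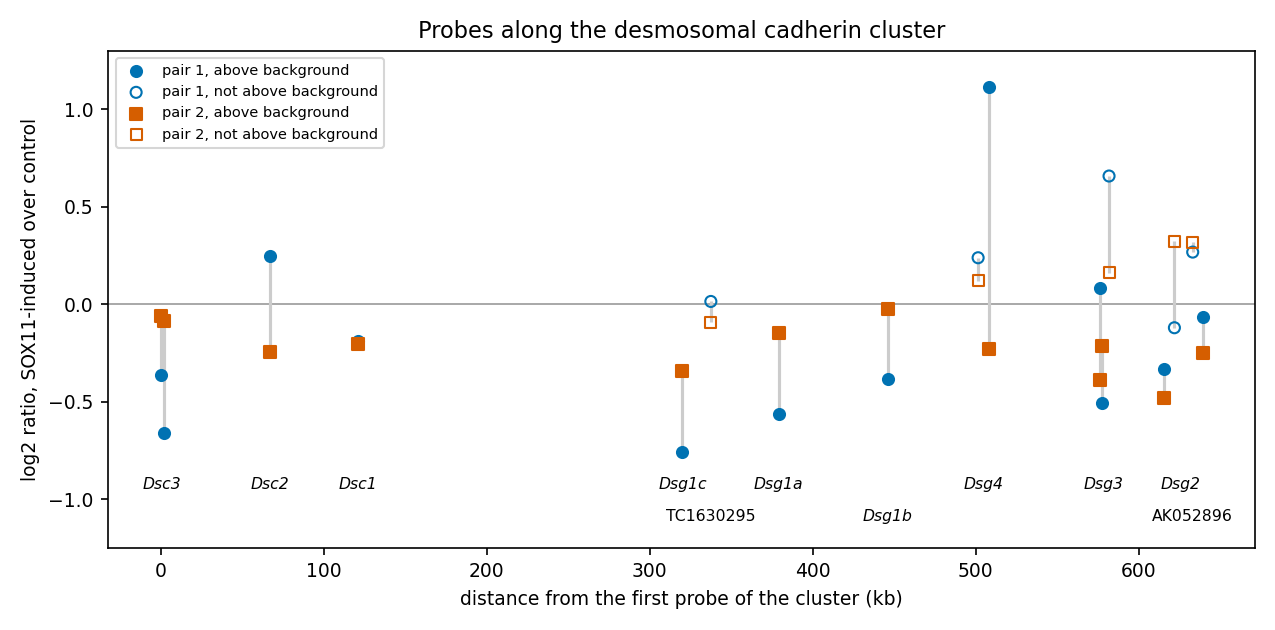
Log2 ratio of every probe along the desmosomal cadherin cluster against its distance in kb from the first Dsc3 probe, for pair 1 (circles) and pair 2 (squares), with open symbols for probes that were not above background. In the loess fit shown, the values of most filled probes lie below 0, and Dsg4 differs between the pairs.

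The desmosome genes outside the 10 members gave a mixed picture, and none passed at an adjusted p under 0.05. They comprised 9 genes with 10 probes above background, of which 5 were lower in both pairs and 4 higher in both, with a median of 0.03. Dsg1c, the third desmoglein 1 copy, went from 8.93 to 8.17 in pair 1 and from 8.76 to 8.42 in pair 2. Its mean log2 ratio of -0.55 ± 0.30 (SD over 2 pairs, limma adjusted p = 0.096) reached an adjusted p of 0.041 with an offset of 50, was near 0 under median centring and turned to 0.80 under spike-in scaling. Dsg4, the desmoglein of the hair cortex, went from 6.34 to 7.45 in pair 1 and from 8.31 to 8.07 in pair 2 (mean log2 ratio 0.44 ± 0.95, limma adjusted p = 0.379). The control pup of pair 1 was again the lowest, as for the hair shaft keratins, and the part of the hair in this value was not tested.

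Pkp2, a plakophilin of simple epithelia and heart, had 0.93 and 0.20 as log2 ratios (mean 0.56 ± 0.52, SD, n = 2; adjusted p = 0.134, limma). Pkp3, which is found in all living layers, had -0.16 and -0.47 (mean -0.31, adjusted p = 0.290). Corneodesmosin (Cdsn), which strengthens desmosomes of the cornified layer, had 0.56 and 0.31 (mean 0.43, adjusted p = 0.151). Of the cornified envelope plakins, envoplakin (Evpl) had a mean of -0.16 and periplakin (Ppl) of 0.09. Perp, a membrane protein that desmosomes need, had 0.05 and 0.14. The 2 Kazn probes had means of -0.17 and -0.03. These values depended on the scaling too. Cdsn passed at an offset of 50 (limma adjusted p = 0.041). Under median centring Cdsn (mean 1.27), Pkp2 (1.03), Perp (0.94), Dsg4 (0.89), Ppl (0.81) and Evpl, which turned to 0.66, passed as higher. Of all probes 21.8% did, but that share counts dim probes and was not computed over those above background. Under this scaling the median was -0.04 over all probes and 0.51 over those above background.

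The genes of the adherens junction, the actin-linked neighbour of the desmosome, included 3 that rose. The list holds cadherins, catenins, vinculin, Mllt4 and the Pvrl genes. Of its cadherins, the Cdh1 probe was not above background, which alone does not show that the gene was silent. Cdh3 had a mean of 0.27 and did not pass (limma adjusted p = 0.377). Of 14 probes above background, 3 passed higher and none lower, with a median of 0.19, while 6.78% of all probes above background passed higher and 3.21% lower. Vinculin (Vcl), which reinforces the link to actin, had 1.07 and 0.75 as log2 ratios, on average 0.91 ± 0.23 (SD, n = 2, with adjusted p = 0.014 in limma). Its second probe had a mean of 0.40 and did not pass (adjusted p = 0.169). The catenin p120 (Ctnnd1), which stabilises cadherins at the membrane, had 0.69 and 0.99 (mean 0.84 ± 0.21, adjusted p = 0.019). The catenin alpha 1 (Ctnna1), which couples cadherins to actin, had 1.02 and 0.65 (mean 0.84 ± 0.26, adjusted p = 0.021). Beta-catenin (Ctnnb1), the close relative of plakoglobin, had 0.77 and 0.48 (mean 0.62, adjusted p = 0.058). Plakoglobin had a lower mean, 0.21, but the difference from the catenins was not tested. All 3 calls were lost with a prior of 4 degrees of freedom (adjusted p from 0.126 to 0.150) and with processed signals (0.256 to 0.283), at similar means. No probe of the array passed with processed signals, and 171 higher and 35 lower of all 55676 did with that prior.

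The remaining lists held the anchored keratins, hemidesmosomes, gap and tight junctions, and regulators. Of 8 keratin probes, only Krt15, a basal keratin, passed, with -1.08 and -0.98 (mean -1.03, adjusted p = 0.006). It did not pass under median centring (mean -0.27), and under spike-in scaling it turned to 0.54 and passed in that direction (adjusted p = 0.004). Of 13 hemidesmosome probes, 3 passed higher and 1 lower. Type XVII collagen (Col17a1), which anchors basal cells, had -1.32 and -0.88 (mean -1.10, adjusted p = 0.007), a mean that was -0.47 under median centring and 0.34 under spike-in scaling, where it did not pass. The tetraspanin Cd151 rose on both its probes, with means of 0.73 and 1.00. The third that rose was an Itga6 probe (mean 3.38), named after its value was seen, while the brighter Itga6 probe had a mean of -0.01. None of 19 gap and tight junction probes and none of 23 regulator probes passed. At an unadjusted p under 0.05 in limma there were 6 of the 19 and 3 of the 23, as well as 6 of 14 adherens, 8 of 13 hemidesmosome and 7 of 8 keratin probes, beside 31.2% of all probes above background. With a prior of 4 degrees of freedom, 1 of the 8 calls over these lists and the adherens list was left. Of all 55676 probes, 171 then passed as higher and 35 as lower.

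**Figure D4:**
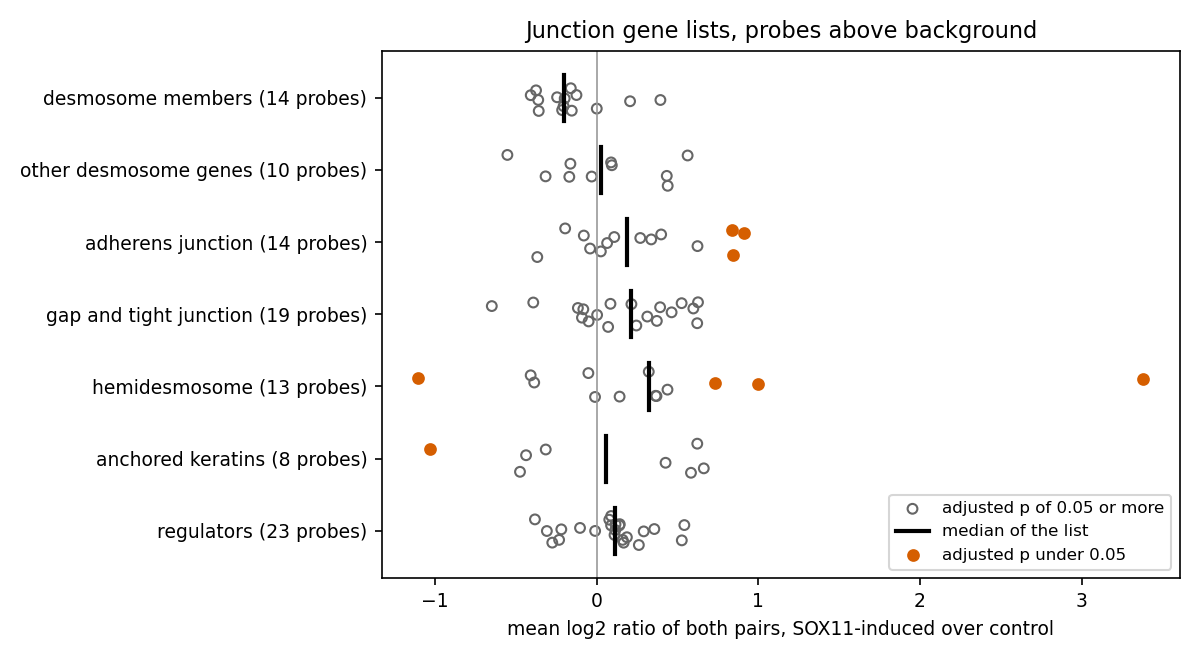
Mean log2 ratio of both pairs for every probe above background in 7 junction gene lists, with the median of each list as a bar and probes at an adjusted p under 0.05 (limma) filled. The desmosome members lie between -0.41 and 0.40 with a median of -0.20 and no filled point, and filled points appear among adherens, hemidesmosome and keratin probes.

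Layer markers are given beside these values. In the basal list 2 probes passed as lower (Krt15 and Col17a1) and 1 as higher (Itga6), and none of the 8 suprabasal probes passed (smallest adjusted p = 0.078, limma, with 7 at an unadjusted p under 0.05). The basal keratinocyte list (8 probes of 6 genes) had median log2 ratios of -0.27 (pair 1) and -0.56 (pair 2). The log2 of its summed channel intensity was 18.07 and 17.81 in the controls and 17.77 and 17.22 in the SOX11 pups. The suprabasal list (8 probes of 5 genes) had medians of 0.30 and 0.52. The log2 of its summed intensity was 18.64 and 18.23 in the controls and 18.99 and 19.00 in the SOX11 pups. The part of these differences in the desmosome values was not tested. Krt15 and Col17a1 changed sign under spike-in scaling, as given above, and the lists as a whole were not computed under the other scalings.

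**Figure D5:**
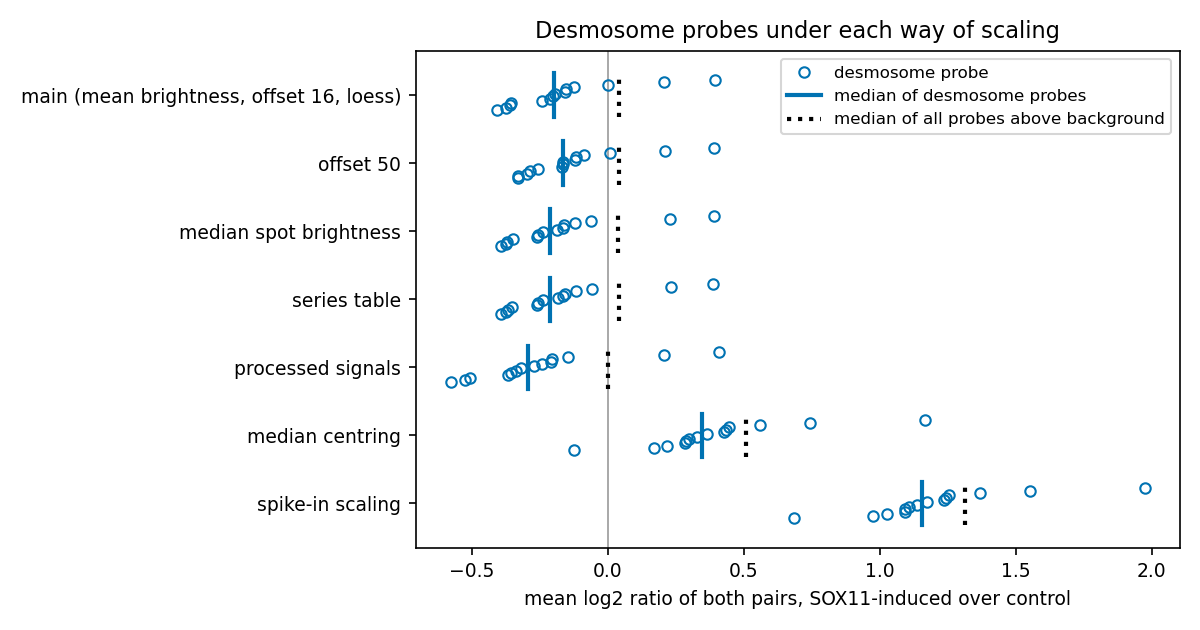
Mean log2 ratio of the 14 desmosome probes above background under 7 ways of processing, with the median of these probes (solid bar) and of all probes above background (dotted bar). The desmosome median lay below the dotted bar in all 7, while its sign changed under median centring and spike-in scaling. The 7 are not independent. Median centring and spike-in scaling have the same distance between the bars by construction, and the series table nearly repeats median spot brightness.

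Promoter sequence was available for Dsp and Jup, as windows from 250 bases before to 50 bases after the start of the gene (RefSeq, GRCm38.p6). The SOX core letters ACAAAG and ACAATG were searched on both strands. Neither letter string was in the windows of these 2 genes, while 28.6% of all 32851 windows held at least 1, which says only that these letters are not in these windows. The other 8 members have no entry.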

How the data were processed

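The deposited scanner files hold, per the file headers, spot and background intensity from Agilent Feature Extraction, with probe positions on mm9. The headers give 10.7.3.1 as the version of the grid placement step, and the paper's methods state another version for the software. The authors' series table holds log2 ratios. The deposited log10 ratio column, computed by the same software per the file headers, was not used. With limma 3.58.1 (R 4.3.3), mean spot and median background intensity were corrected by normexp (offset 16) and arrays were centred by loess, with control spots weighted 0. Flagged outlier spots (194 and 186) were dropped, none of them of a desmosome probe, and spots of a probe were averaged. A model with an intercept alone, moderated variances (eBayes, prior of 8.34 degrees of freedom) and Benjamini-Hochberg adjustment over 55676 probes gave every p-value of a probe. The ratio within an array is already the paired difference. A probe was above background when at least 0.5 of its spots were marked well above background in 1 channel or more on both arrays. Channel levels were taken after Aquantile scaling. The scripts were tested on simulated data. The methods mention a colour swap and a ComBat step for dyes, whereas the labels show the same dyes on both arrays; no ComBat step was used here.

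Members and lists were chosen with earlier results of these data known. Named were all members, all other desmosome genes, names in the cluster and, from each remaining list, up to 4 genes whose brightest probe was above background with an adjusted p under 0.05; genes outside this rule were named after their values were seen. Each array compared 1 littermate pair, and the number of arrays, 2 on the same slide, limits the precision. The alternatives were an offset of 50, median centring, processed signals (intensity after the software's own corrections, per the file headers), median brightness, flagged spots kept, dim probes left out, the series table, spike-in scaling, each pair left out, and, added after seeing the data, a prior of 4 degrees of freedom.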

Additional observations from a re-analysis of the deposited data

How the results depend on the processing

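The number of desmosome probes at an adjusted p under 0.05, which was 0, became 1 with an offset of 50, 3 under median centring and 16 under spike-in scaling, and the number called changed became 2 under spike-in scaling. Over all probes, dim ones included, 5.12%, 21.8% and 86.4% passed as higher under these settings, and 12.6% were called under spike-in scaling. The median log2 ratio of these probes moved to 0.35 under median centring and 1.16 under spike-in scaling, and it lay between -0.27 and -0.12 with 1 pair left out. Under median centring the sign turned for Dsc1 (0.43), Dsc3 (0.22 and 0.30), Dsg1a (0.29), Dsg1b (0.37), Dsg2 A_51_P249848 (0.28), Dsg3 (0.33 and 0.17), Dsp A_51_P201884 (0.43) and Pkp1 (0.56). Under spike-in scaling it turned for Dsc1 (1.24), Dsc3 (1.03 and 1.11), Dsg1a (1.09), Dsg1b (1.17), Dsg2 (1.09 and 0.68), Dsg3 (1.14 and 0.98), Dsp A_51_P201884 (1.24) and Pkp1 (1.37). Dsc2, near 0, was at -0.061 with median spot brightness, -0.15 with processed signals and -0.059 in the series table. The 8 calls over the other junction lists became 20 with an offset of 50, 61 under median centring and 86 under spike-in scaling. They became 0 with processed signals and 1 with a prior of 4 degrees of freedom. Over all 55676 probes, none passed with processed signals. With that prior 171 passed as higher and 35 as lower, against 1662 and 784 in the main fit. Loess and median centring differ by construction in how they treat brightness, and which is nearer to the RNA content was not tested. With 2 arrays of 1 dye orientation, the calls rest on limma's prior, and a p that misses the threshold does not show that a gene was unchanged.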
